A study of Mus musculus with 10 samples.

Results

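The genes described here make, carry, sense and clear retinoic acid, and they were chosen by name: Aldh1a1, Aldh1a2, Aldh1a3, Rara, Rarb, Rarg, Crabp1, Crabp2 and Cyp26b1, which are 9 of the 23230 features of the expression matrix. RNAseq values came from 10 mouse libraries in 3 groups. AstroEGFR* (3 libraries) were cortical astrocytes of C57BL/6 pups at postnatal day 5, lacking p16/p19 (Ink4a/Arf) and carrying a retrovirus for human EGFRvIII, a constitutively active form of the epidermal growth factor receptor. PT (4 libraries) were glioma propagating cells grown from the tumours that such astrocytes formed in the brain of Nude mice, so they carry the same deletion and the same receptor. AstroEGFR* Zfp423 (3 libraries) were the same 3 astrocyte batches with a second viral vector for Zfp423, a zinc finger transcription factor. All cultures were used at fewer than 10 passages. Batch 1 gave rise to PT1 and PT4, batch 2 to PT2 and batch 3 to PT3, so the 4 PT libraries stand for 3 astrocyte batches. The astrocyte medium held serum, whereas PT were kept without serum in B27, N2, EGF and FGF2, so the medium and passage through a tumour cannot be told apart in this comparison. Serum and B27 are both possible sources of retinoids, and retinoids in the media were not measured here.

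Retinoic acid is made from vitamin A (retinol). Retinol dehydrogenases turn retinol into retinaldehyde, and the retinaldehyde dehydrogenases ALDH1A1, ALDH1A2 and ALDH1A3 turn that into retinoic acid in a step that is not reversed. CRABP1 and CRABP2 bind retinoic acid in the cytoplasm, CRABP2 being known for handing it to the nuclear receptors and CRABP1 for holding it or passing it to breakdown. RARA, RARB and RARG are the receptors, which bind DNA with an RXR partner, and CYP26B1 is an enzyme that degrades retinoic acid. In the developing brain the meninges are a well known source of retinoic acid through ALDH1A2.

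Receptor pairs bind direct repeats of a 6-letter half-site, and Rarb is the textbook gene that retinoic acid switches on through such a repeat. RefSeq promoters (assembly GRCm38.p6, 250 bases before to 50 after a start) were at hand for 7 of the 9 genes, in 12 promoters. They were searched on both strands for direct repeats of the half-site AGGTCA, or of any of its close variants (AGTTCA in some elements, GGGTCA in others and also GGTTCA), with 1, 2 or 5 bases between them. Such a repeat was found in 193 of 32851 mouse promoters, which is 0.588%, and in 1 of the 12, that of Rarb. The Rarb repeat, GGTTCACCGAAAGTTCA, has 5 bases between its half-sites, a form found in 0.0974% of all promoters, and lies from 53 to 37 bases before the start. The promoter of Rarb is shown with that repeat in capitals, followed by those of Rarg and Aldh1a1 (1 of the 2 listed for each), the genes with a promoter at hand whose levels in PT and AstroEGFR* did not overlap. No window of these 2 genes holds such a repeat. A match is a description of the letters and not evidence of binding, and other regions of these genes were not searched.
Rarb promoter, chr14:16575427-16575726, minus strand: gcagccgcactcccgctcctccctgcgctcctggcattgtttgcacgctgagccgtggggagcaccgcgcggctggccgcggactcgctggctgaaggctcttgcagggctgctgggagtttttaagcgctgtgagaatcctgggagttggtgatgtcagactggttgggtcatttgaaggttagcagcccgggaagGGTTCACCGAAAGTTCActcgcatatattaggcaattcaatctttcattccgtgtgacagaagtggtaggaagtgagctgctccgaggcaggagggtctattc
Rarg promoter, chr15:102257473-102257772, minus strand: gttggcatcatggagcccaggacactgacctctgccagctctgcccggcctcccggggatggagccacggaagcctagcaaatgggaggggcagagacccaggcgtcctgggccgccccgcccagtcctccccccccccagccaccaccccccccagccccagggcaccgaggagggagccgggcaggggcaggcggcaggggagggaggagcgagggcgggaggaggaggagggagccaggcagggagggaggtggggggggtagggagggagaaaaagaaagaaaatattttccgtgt
Aldh1a1 promoter, chr19:20601718-20602017, plus strand: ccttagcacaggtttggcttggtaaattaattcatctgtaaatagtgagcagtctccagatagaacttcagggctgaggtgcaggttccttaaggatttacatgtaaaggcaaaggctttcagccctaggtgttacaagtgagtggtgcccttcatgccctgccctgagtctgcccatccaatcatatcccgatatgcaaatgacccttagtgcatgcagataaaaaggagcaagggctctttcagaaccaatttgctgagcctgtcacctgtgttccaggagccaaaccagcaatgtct

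The labels were checked with Zfp423 and with lists of cell type markers. Zfp423 was listed at 4.30, 3.25 and 3.48 FPKM in AstroEGFR*1 to 3 and at 15.7, 9.73 and 105 FPKM in the matched Zfp423 cultures, higher in 3 of 3 batches, by 2.99 to 30.2 times. In PT1 to PT4 it was listed at 0.837, 2.78, 0.641 and 1.77 FPKM. Of 11 astrocyte markers, Gjb6 was listed at 0 in all 10 libraries, and the summed level of the list was 531 to 1098 FPKM in AstroEGFR* and 399 to 1288 in PT, but 214, 64.6 and 930 in Zfp423 cultures 1, 2 and 3. The 9 microglia markers summed to 617 and 378 FPKM in Zfp423 cultures 1 and 2, with all 9 at 1 FPKM or more, against 1.28 in Zfp423 culture 3, 7.36 to 39.7 in AstroEGFR* and 2.38 to 36.7 in PT. The 14 meninges and fibroblast markers summed to 5494 FPKM in AstroEGFR*3 and to 4863 and 6505 in Zfp423 cultures 1 and 2, against 583 and 663 in the other AstroEGFR*, 286 in Zfp423 culture 3 and 41.0 to 415 in PT. In those 3 libraries Col1a1, Col1a2 and Col3a1 made up most of the sum. The meningeal transporters Slc6a13 and Slc22a6 were at or near 0 throughout. Other markers of the list were not, and Foxc1 was at 57.7, 34.9 and 39.1 FPKM in AstroEGFR*3 and Zfp423 cultures 1 and 2. In the same order Foxd1 was at 61.8, 13.5 and 25.5, Tbx18 at 13.4, 9.05 and 16.0, and Zic1 at 32.0, 2.64 and 10.7 FPKM. Lum was at 50.7, 1.04 and 0.0196 FPKM. Across 12366 features, deviations from the group mean correlated at 0.239 between the parental and Zfp423 libraries of batch 1, but at -0.110 in batch 2 and -0.261 in batch 3, whereas AstroEGFR*3 correlated at 0.305 with Zfp423 culture 2 and AstroEGFR*2 at 0.223 with Zfp423 culture 3. By these deviations each parental library of batches 2 and 3 was closest to the Zfp423 culture of the other number. Direct correlations of log2 values gave this for AstroEGFR*2 only, at 0.940, 0.913 and 0.954 with Zfp423 cultures 1 to 3. For AstroEGFR*3 they were 0.913, 0.899 and 0.889, highest with culture 1. Whether cultures were exchanged was not tested, the numbers of the labels were kept, and differences within batches 2 and 3 rest on them. Between AstroEGFR* and PT each pair of the same batch correlated at 0.347 to 0.50. In bulk cultures fewer cells of a type and less RNA per cell cannot be told apart.

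FPKM carry no fragment counts. Judged from the spacing of low values, AstroEGFR*3 and PT3 were sequenced at 0.117 and 0.154 times the depth of Zfp423 culture 1 and the other libraries at 0.847 to 1.68 times. Hmgcs1 was listed at 0 and Gapdh at 0.0106 to 50.1 FPKM in the 10 libraries, although cells use both genes, so a value of 0 is given as listed and not as absence. For the 3 members listed at 0 in any library (Aldh1a2, Crabp1 and Crabp2), values are given by library and without an SD. FPKM are divided by transcript length, but values such as those of Hmgcs1 and Gapdh show that this alone does not make genes comparable. Rankings and shares of different genes below are therefore of FPKM as listed.

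Aldh1a1 was the retinaldehyde dehydrogenase with the highest listed FPKM in the parental astrocytes and was low in PT. It was listed at 17.0, 58.0 and 79.8 FPKM in AstroEGFR*1 to 3, at 6.85, 1.72, 13.8 and 5.22 FPKM in the PT libraries in order, and at 7.21, 3.06 and 29.5 FPKM in Zfp423 cultures 1 to 3. Every PT library lay below every parental library, as for 7.81% of the 12261 features tested. The group means were 51.6 ± 31.9 FPKM (SD, n = 3) in AstroEGFR* and 6.90 ± 5.07 FPKM (SD, n = 4) in PT, and the exact permutation test gave p = 0.0286 (two-sided), the smallest value that 3 libraries against 4 allow. That test treats the libraries as exchangeable, although PT1 and PT4 share batch 1 (r = 0.981 between their log2 values) and same-batch AstroEGFR* and PT libraries deviate together. With PT1 and PT4 averaged the exact permutation p was 0.1 for Aldh1a1, and likewise for Crabp2 and Rarg, which is the smallest that 3 against 3 allow. This test also leaves the pairing by batch out. No p below 0.05 can be reached by permutation over 3 batches, paired or not. On the log2(FPKM + 1) scale PT differed by -2.73 (SE 0.68, 95% interval -4.31 to -1.14), which did not pass the threshold once adjusted for all features (limma with Benjamini-Hochberg adjustment, adjusted p = 0.125). Within batches, the difference was -1.20 and -1.53 for PT1 and PT4, -4.44 for PT2 and -2.45 for PT3, and 18.2% of all features were lower in every PT library than in the parental library of its batch. The Aldh1a1 reads may be shared with its close paralogue Aldh1a7, which was listed at 0.10 to 0.524 times the level of Aldh1a1 and was the feature most like it over the 10 libraries (Pearson r = 0.953 of log2(FPKM + 1)). Mpzl3 (r = 0.951) and Mllt3 (r = 0.917) came next. These likenesses are descriptions over 10 libraries that share batches and media.

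Aldh1a2, the enzyme of the meninges and of early embryos, was near 0 in all PT libraries. AstroEGFR*1 to 3 were listed at 2.83, 0.0153 and 6.20 FPKM, and PT1 to PT4 at 0.0106, 0, 0 and 0.0215 FPKM. AstroEGFR*2 was thus as low as PT, and the groups overlapped (exact permutation p = 0.0571). The Zfp423 cultures held 1.53, 0.438 and 0.972 FPKM. The difference of PT was -1.59 on the log2 scale (SE 0.65, limma adjusted p = 0.340). The features most like Aldh1a2 were Gm1045 (r = 0.944), Wif1 (r = 0.923) and Stmn2 (r = 0.919). Stmn2 was at 3.04 and 12.3 FPKM in AstroEGFR*1 and AstroEGFR*3 and at most 0.468 FPKM elsewhere, so its r rests mainly on those libraries.

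Aldh1a3 followed no group. It was listed at 2.95, 3.64 and 23.0 FPKM in AstroEGFR*1 to 3, at 12.04, 3.18, 0.181 and 4.98 FPKM in the PT libraries in order, and at 13.2, 0.162 and 0.0787 FPKM in the Zfp423 cultures. Within batch 1 both PT libraries and the Zfp423 culture lay above the parental library, and within batch 3 both PT3 and the Zfp423 culture lay below it by 4.35 and 4.48 on the log2 scale. The groups of AstroEGFR* and PT overlapped (difference -0.78, SE 0.92, limma adjusted p = 0.781), and the sign turned to 0.05 without AstroEGFR*3.

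Summed over the 3 dehydrogenases, AstroEGFR* held 22.8 to 109 FPKM, PT 4.90 to 18.9 FPKM and the Zfp423 cultures 3.66 to 30.6 FPKM. Aldh1a1 made up 73.2 to 94.1% of that sum in AstroEGFR* and 35.1 to 98.7% in PT, where Aldh1a3 was the larger share in PT1 and PT2. The receptors were more even. Their sum was 48.7 to 64.2 FPKM in AstroEGFR*, 38.9 to 46.8 in PT and 31.6 to 68.2 in the Zfp423 cultures, and the plot of family levels shows both sums by library.

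**Figure D1:**
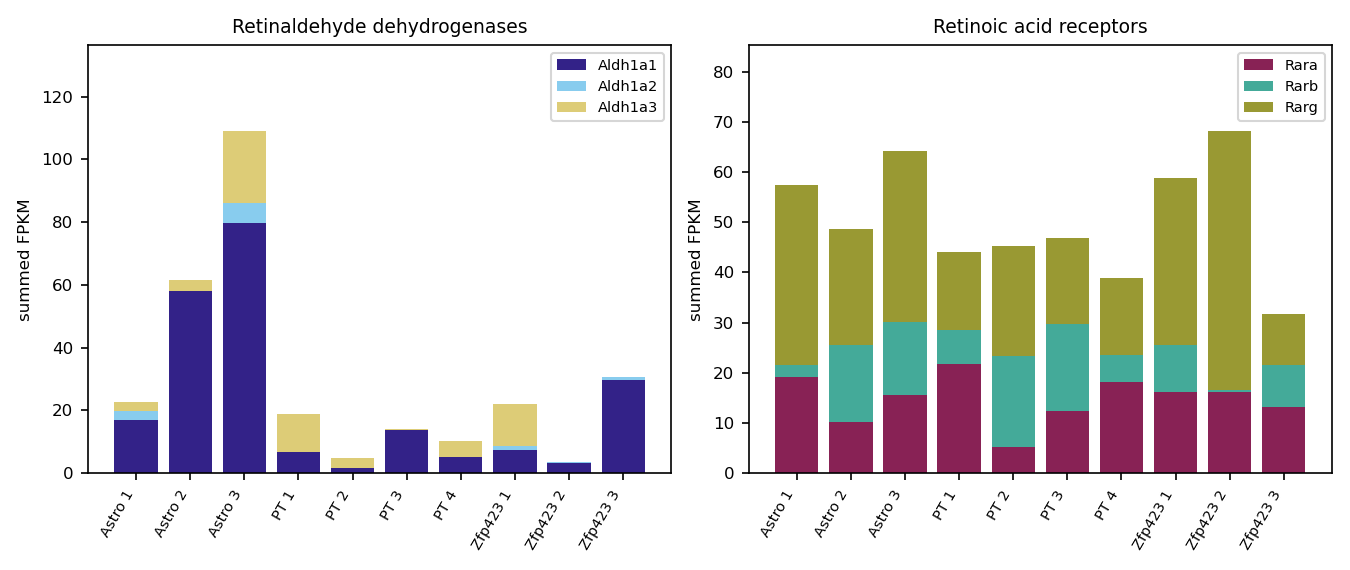
Summed FPKM of the 3 retinaldehyde dehydrogenases (left) and the 3 retinoic acid receptors (right) in each of the 10 libraries, as stacked bars. The dehydrogenase sum ranged from 3.66 to 109 FPKM and was mostly Aldh1a1 in AstroEGFR*, while the receptor sum stayed between 31.6 and 68.2 FPKM.

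Crabp1 was the member with the widest range. PT1 and PT4 held 364 and 209 FPKM, whereas PT2 and PT3 held 0.239 and 0.438 FPKM. The parental libraries were listed at 24.3, 2.08 and 4.30 FPKM, batch 1 again being the highest, and the Zfp423 cultures at 1.13, 9.84 and 0 FPKM. High Crabp1 was thus found in the 2 PT libraries of batch 1 and not in the other PT. The difference between PT and AstroEGFR* was 1.37 on the log2 scale with a 95% interval from -3.79 to 6.53 (exact permutation p = 0.629, limma adjusted p = 0.852), and it was 0.10 with PT1 and PT4 averaged. The 9 oligodendrocyte lineage markers summed to 1357 and 1690 FPKM in PT1 and PT4 and to 38.3 to 223 FPKM in the other 8 libraries, and their part in the level of Crabp1 was not tested. The features most like Crabp1 were Bahcc1 (r = 0.98), Tmem41a (r = 0.973) and Mrpl14 (r = 0.965), and these values rest mainly on the same 2 libraries.

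Crabp2 was low in every PT library. It was listed at 3.16, 1.76 and 25.1 FPKM in AstroEGFR*1 to 3 and at 0.268, 0.306, 0 and 0.138 FPKM in the PT libraries in order, with no overlap (exact permutation p = 0.0286, the smallest possible over 7 libraries). The difference was -2.51 on the log2 scale (SE 0.73, 95% interval -4.22 to -0.81, limma adjusted p = 0.178) and -1.46 when both libraries of batch 3 were left out. In the Zfp423 cultures it was listed at 56.8, 162 and 0.0270 FPKM, so cultures 1 and 2 held more than any parental library and culture 3 less than any. The libraries with the most Crabp2, namely Zfp423 cultures 2 and 1 and AstroEGFR*3, were also the 3 with the highest sums of the meninges and fibroblast markers. The part of these markers in the level of Crabp2 was not tested. The features most like Crabp2 were Nfatc4 (r = 0.994), Fxyd5 (r = 0.994) and Fam20a (r = 0.991). Of the 14 meninges and fibroblast markers, 12 were tested in PT, of which all 12 were lower, 2 passed the threshold and the median difference was -3.10 on the log2 scale. Over all 12261 features tested, 5872 were lower, 152 passed (1.24%) and the median was 0.03.

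**Figure D2:**
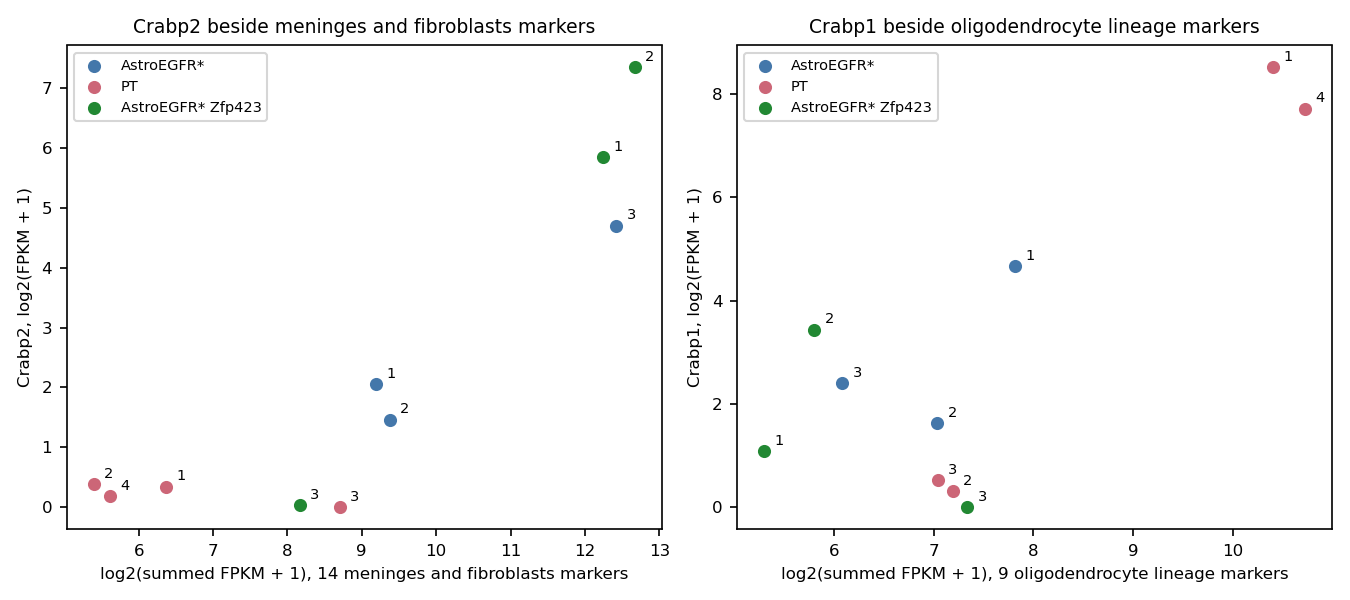
Left, Crabp2 against the summed level of 14 meninges and fibroblast markers; right, Crabp1 against that of 9 oligodendrocyte lineage markers, both as log2 of FPKM plus 1 with 1 point per library and its number beside it. Crabp2 is highest where the marker sum is 4863 FPKM or more (AstroEGFR*3 and Zfp423 cultures 1 and 2), and Crabp1 is highest in PT1 and PT4.

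Rarg was the receptor with the highest listed FPKM in the parental astrocytes and was lower in PT. It was listed at 35.8, 23.2 and 34.2 FPKM in AstroEGFR*1 to 3 and at 15.5, 21.8, 17.0 and 15.3 FPKM in the PT libraries in order. The groups did not overlap, with means of 31.1 ± 6.86 FPKM (SD, n = 3) and 17.4 ± 3.02 FPKM (SD, n = 4) and an exact permutation p of 0.0286, although AstroEGFR*2 and PT2 of batch 2 differed by 0.09 on the log2 scale. The difference of the groups was -0.79 on the log2 scale (SE 0.25, 95% interval -1.37 to -0.22, limma adjusted p = 0.211). The Zfp423 cultures held 33.3, 51.7 and 10.2 FPKM and so reached beyond the parental range on both sides. Vasn (r = 0.943), Fam46b (r = 0.941) and Elf4 (r = 0.938) were most like it.

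Rara, the receptor expressed in most tissues, was at similar levels in the 3 groups. The values were 19.2, 10.2 and 15.6 FPKM in AstroEGFR*, 21.7, 5.23, 12.5 and 18.2 FPKM in PT and 16.2, 16.2 and 13.1 FPKM in the Zfp423 cultures. The lowest libraries were those of batch 2 in AstroEGFR* and PT. The 95% interval of the difference between PT and AstroEGFR* was -1.26 to 0.92 on the log2 scale around -0.17 (limma adjusted p = 0.923). Changes within that interval were thus not excluded. Against the parental cultures the Zfp423 cultures differed by 0.05 (95% interval -0.73 to 0.83).

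Rarb, the receptor gene whose promoter holds the repeat shown above, overlapped between PT and AstroEGFR*. It was listed at 2.42, 15.3 and 14.4 FPKM in AstroEGFR*1 to 3 and at 6.80, 18.1, 17.3 and 5.34 FPKM in the PT libraries in order. Every PT library was above the parental library of its batch, by 1.19 and 0.89 on the log2 scale in batch 1, 0.23 in batch 2 and 0.25 in batch 3, a pattern of 21.7% of all features. PT1 and PT4 are set against the same parental library, so these are not 4 independent pairs. Over the groups the difference was small against its error (0.27, SE 0.66, 95% interval -1.27 to 1.81, limma adjusted p = 0.910). With the batch as a block the difference was 0.56 (limma adjusted p = 0.213). In the Zfp423 cultures it was listed at 9.29, 0.323 and 8.39 FPKM, and culture 2 was the lowest of the 10 libraries. Plat was the feature most like Rarb (r = 0.885).

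Rarg made up 47.6 to 62.3% of the receptor sum in AstroEGFR* and 35.2 to 48.3% in PT. In PT1 and PT4 Rara was the receptor with the highest listed FPKM (21.7 and 18.2 FPKM). In PT2 Rarg led Rarb (21.8 and 18.1 FPKM), and in PT3 Rarb and Rarg were level (17.3 and 17.0 FPKM). Cyp26b1, which degrades retinoic acid, was listed at 0.711, 0.230 and 3.51 FPKM in AstroEGFR*, at 0.0541, 0.0233, 0.103 and 1.00 FPKM in PT and at 0.374, 0.850 and 0.0690 FPKM in the Zfp423 cultures. Its mean lay below 1 FPKM in both comparisons, so it did not enter the fits, and the exact permutation test of PT against AstroEGFR* gave p = 0.257.

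**Figure D3:**
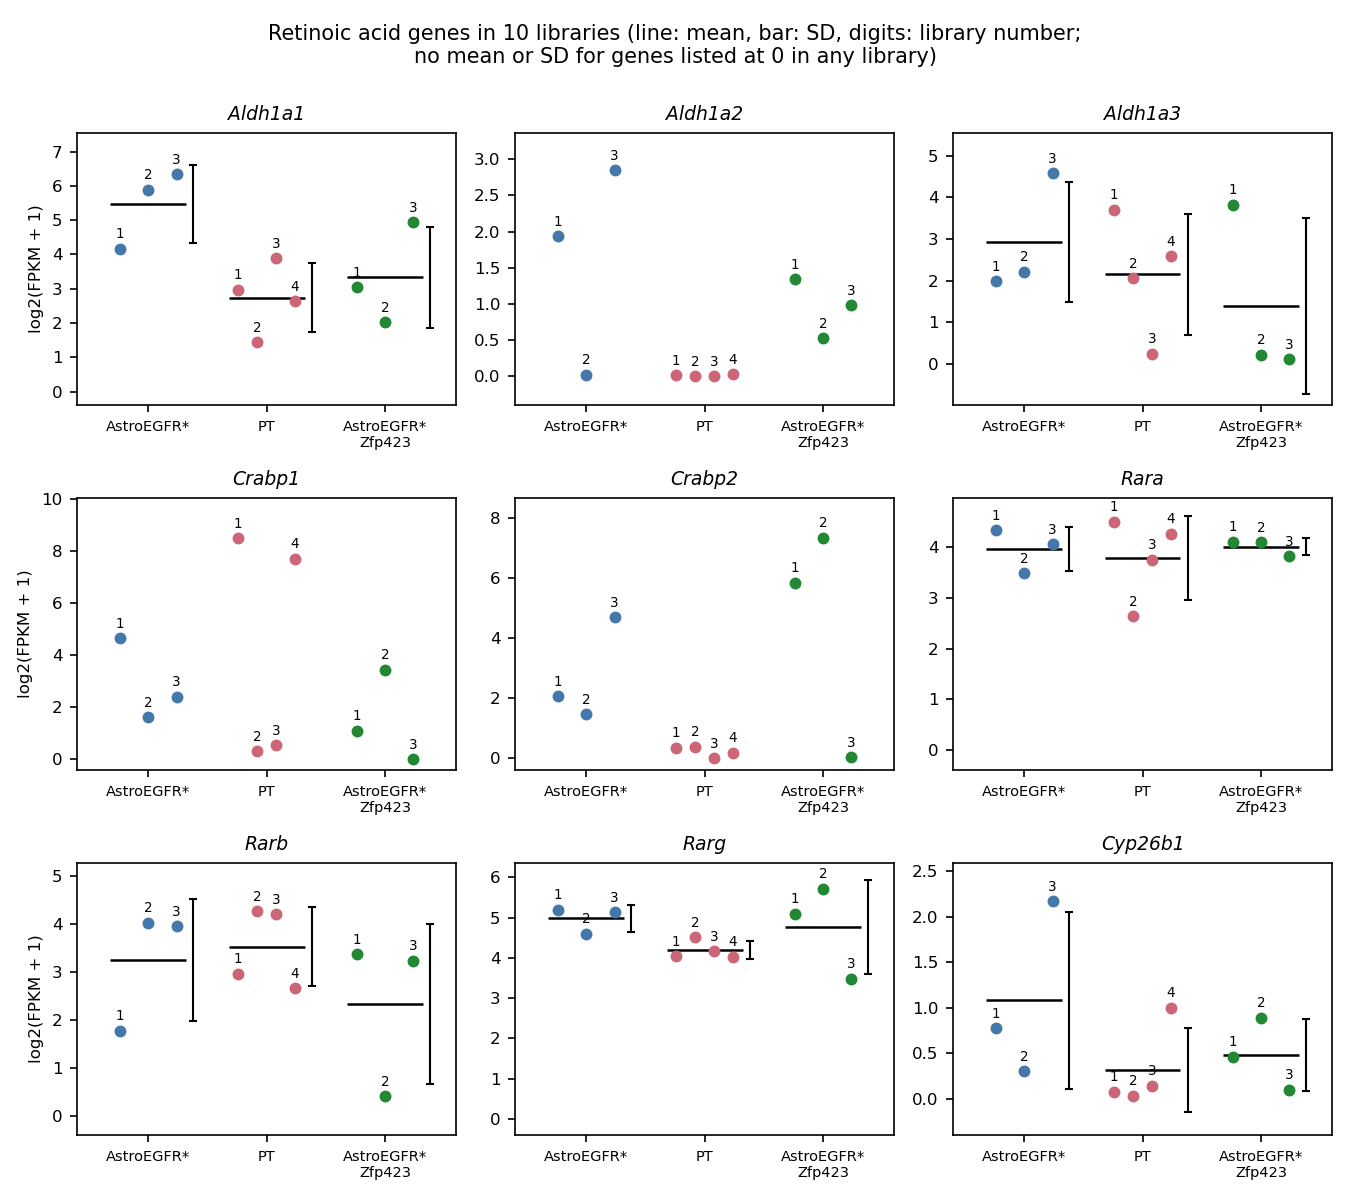
Level of each of the 9 genes as log2 of FPKM plus 1 in AstroEGFR*, PT and AstroEGFR* Zfp423, with 1 point per library, its number above it, a line for the mean and a bar for the SD over libraries; the vertical scale differs between genes, and Aldh1a2, Crabp1 and Crabp2 are drawn without mean or SD. PT lie below AstroEGFR* without overlap for Aldh1a1, Crabp2 and Rarg.

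Of the 9 genes, 8 had a mean of at least 1 FPKM over AstroEGFR* and PT and were tested. None passed an adjusted p of 0.05 in limma, against 152 of all 12261 features tested (1.24%), of which 39 were higher and 113 lower in PT. With the astrocyte batch as a block 475 features passed, and again 0 of the 8 genes. At an unadjusted limma p of 0.05, 4 of the 8 genes passed (Aldh1a1, Aldh1a2, Crabp2 and Rarg), against 13.6% of all features. PT lay below AstroEGFR* without overlap for 3 of the 8 genes, against 7.81% of all features. The difference was negative for 6 of the 8 genes and positive for 2, with a median of -0.79 on the log2 scale, against 0.03 over all features. Aldh1a2 and Crabp2 were at most 0.0215 and 0.306 FPKM in PT and reached the filter only through AstroEGFR*. With PT this low they could enter the test only by being higher in AstroEGFR*. Both are among the 4 and the 6, and Crabp2 is among the 3, so these counts are no support for a lower level in PT.

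The Zfp423 cultures were compared with their parental cultures of the same batch for the same genes. No library came from an empty-vector culture, so Zfp423 and its vector cannot be told apart. Small RNA and histone features held 0.315, 29.6 and 4.84% of the summed FPKM in AstroEGFR*1 to 3. In Zfp423 cultures 1 to 3 they held 35.4, 35.9 and 54.8%, and in PT1 to PT4 0.462, 34.2, 6.08 and 0.683%. The groups thus also differ in library make-up, and removal of these features was among the alternatives. Aldh1a1 was lower in 3 of 3 batches, by -1.13, -3.86 and -1.40 on the log2 scale, a pattern of 15.2% of the 12366 features tested. The estimate was -2.13 (SE 0.63, 95% interval -3.85 to -0.41, limma adjusted p = 0.628) and ranged from -2.63 to -1.27 over the alternatives, each library left out among them. None of the other 8 genes moved one way in all batches. The values for batches 2 and 3 hold for the numbers as labelled, while the mean difference over the 3 batches does not depend on which culture is set against which. Crabp2 was higher by 3.79 and 5.89 in batches 1 and 2 and lower by -4.67 in batch 3, and Crabp1 differed by -3.57, 1.82 and -2.41. Rarb differed by 1.59, -3.62 and -0.71, and Rarg by -0.10, 1.12 and -1.66. Of the 8 genes tested, 0 passed the adjusted threshold, against 0% of all features. At an unadjusted limma p of 0.05, 1 gene passed (Aldh1a1), against 7.38% of all features. A sign test over 3 pairs can give no two-sided p below 0.25, so none was made. Both comparisons use the same parental libraries, so the lower Aldh1a1 in PT and in the Zfp423 cultures are not independent of each other. In Zfp423 cultures 1 and 2, where the microglia and fibroblast markers were high and the astrocyte markers low, Aldh1a1 was 7.21 and 3.06 FPKM, against 29.5 FPKM in culture 3, and the part of these markers was not tested.

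**Figure D4:**
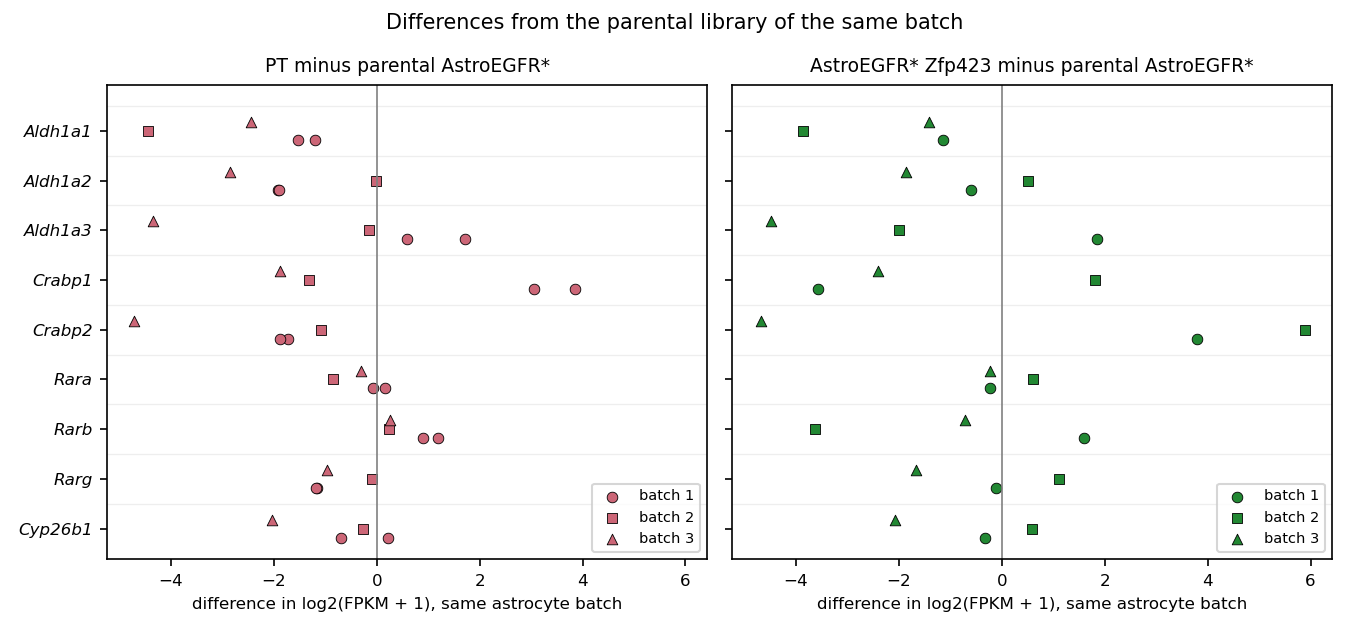
Difference in log2 of FPKM plus 1 of each PT library (left) and each Zfp423 culture (right) from the parental AstroEGFR* library of its batch, with 1 symbol per library and its shape giving the batch. Aldh1a1 is below 0 in all 4 PT and all 3 Zfp423 libraries, and Rarb is above 0 in all 4 PT libraries.

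The genes before and after these steps were taken from lists of the retinoid pathway. Of 7 genes for uptake, carriage and storage of retinol, 1 was tested in PT against AstroEGFR* and 0 passed. Dgat1, which can esterify retinol, differed by 0.36 (adjusted p = 0.762). Stra6, the retinol uptake receptor, was at 0.408 to 1.02 FPKM in AstroEGFR* and at most 0.0203 FPKM in PT, below the level for testing. It is named without a fitted difference. PT lay below AstroEGFR* without overlap for 7.81% of the features that were tested. Rbp4, also below that level, was at 0, 0 and 4.64 FPKM in AstroEGFR*1 to 3. In PT1 to PT4 Rbp4 was at 0.0435, 1.02, 0 and 0.0588 FPKM.

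Of 16 genes for the conversion between retinol and retinaldehyde, 10 were tested and 1 passed, against 1.24% of all features. Rdh10, the dehydrogenase that makes most of the retinaldehyde of the embryo, was listed at 54.3, 37.4 and 43.96 FPKM in AstroEGFR* and at 5.60, 7.67, 10.8 and 5.80 FPKM in PT, without overlap and lower as for 7.81% of all features. It fell by 2.47 on the log2 scale (SE 0.28, limma adjusted p = 0.0109). The Zfp423 cultures lay below their parental libraries in 3 of 3 batches, a pattern of 15.2% of the features tested there. They were at 25.9, 10.8 and 15.5 FPKM (difference -1.40, SE 0.24, limma adjusted p = 0.628). Dhrs3, which turns retinaldehyde back to retinol and is itself raised by retinoic acid, was at 23.1, 8.84 and 15.6 FPKM in AstroEGFR* and 2.50, 2.99, 10.8 and 0.325 FPKM in PT (difference -2.04, SE 0.70, adjusted p = 0.261). The difference of Rdh10 was of like size but no longer passed in the absence of either of 2 parental libraries, at -2.33 without AstroEGFR*1 (limma adjusted p = 0.0728) and -2.48 without AstroEGFR*3 (limma adjusted p = 0.0518). The median difference of the 10 tested genes was -0.05.

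Fabp5, which can carry retinoic acid to PPARD instead of the retinoic acid receptors, was at 1.73, 5.74 and 11.4 FPKM in AstroEGFR* and 27.8, 57.6, 10.1 and 25.9 FPKM in PT (difference 2.13, SE 0.66, limma adjusted p = 0.208). Of the 4 genes in its list (3 degradation enzymes and Fabp5) it was the one tested. It overlapped only through PT3, which lay below AstroEGFR*3. Cyp26a1, the degradation enzyme best known for being raised by retinoic acid, was listed at 4.37 FPKM in Zfp423 culture 1 and at 0 to 0.438 FPKM in the other 9 libraries, and it is named here after its values were seen. Ppard itself differed by 0.77 (SE 0.63) and Rxra, an RXR partner of the receptors, by -0.69 (SE 0.34), and 0 of the 3 genes tested of that list of 4 passed. All 8 coregulators were tested, 0 passed, and their median was 0.02. Ncoa1, a coactivator of nuclear receptors, differed most (0.96, SE 0.28, adjusted p = 0.179), followed by Crebbp at -0.27.

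The listed target genes of retinoic acid did not move together. Rarb, Dhrs3 and Cyp26a1, described above as raised by retinoic acid, are not in that list. Of 16 listed, 9 were tested, 6 were higher and 3 lower in PT, 0 passed, and their median was 0.26, against 0.03 over all features. Rarres2 was at 0.487, 0.560 and 2.17 FPKM in AstroEGFR* and 4.61, 4.07, 7.71 and 4.36 FPKM in PT, without overlap and higher as for 6.95% of all features (difference 1.63, SE 0.38, limma adjusted p = 0.107). Hoxa5, which was at 1.64, 12.9 and 1.09 FPKM in AstroEGFR* and 11.4, 18.5, 4.03 and 9.92 FPKM in PT, differed by 1.34 (SE 0.73, adjusted p = 0.483). In the Zfp423 comparison 0 genes of these 6 pathway lists passed in limma. Rdh10 (1 of 11 tested in its list) and Ncoa3 (1 of 8) alone had an unadjusted limma p below 0.05, against 7.38% of all features.

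**Figure D5:**
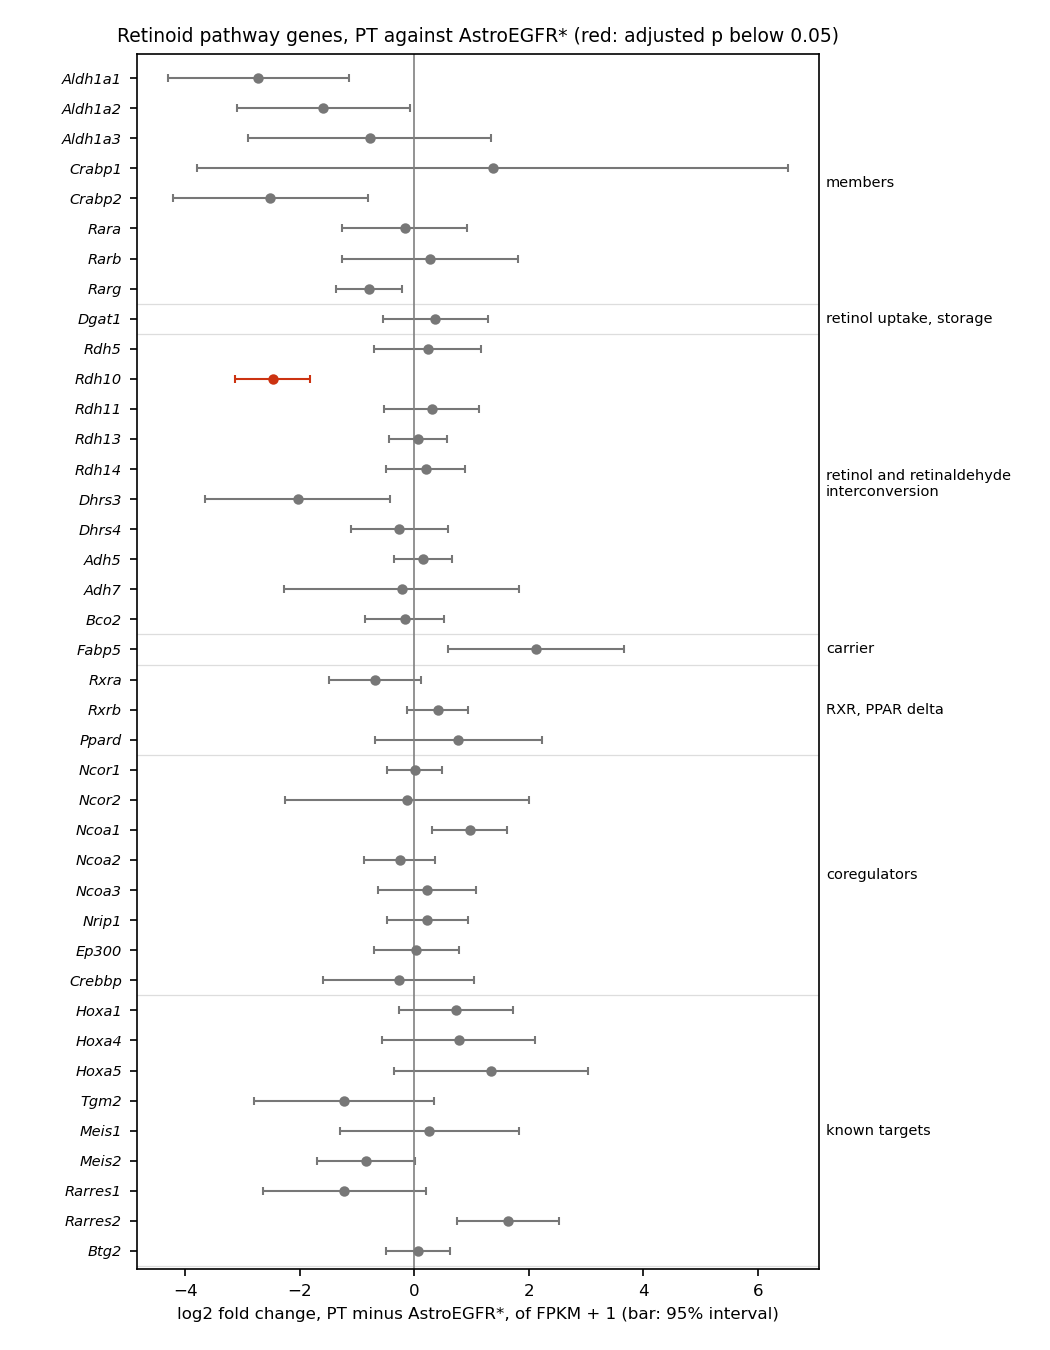
Log2 fold change of PT against AstroEGFR* on FPKM plus 1, with its 95% interval, for the 8 tested members and the tested genes of 6 pathway lists; red marks an adjusted limma p below 0.05. Rdh10 at -2.47 is the only gene drawn in red.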

How the data were processed

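The authors deposited 1 matrix of FPKM values of 23230 features named by gene symbol for the 10 libraries, and every column was used. Per the labels' processing notes the reads were handled with TopHat 1.3 and Cuffnorm against mm9. The labels name a TruSeq kit and a lentiviral Zfp423 vector, the study's methods ribosomal RNA removal with stranded libraries and a retroviral one. Since FPKM hold no counts, count models were not used.

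Log2(FPKM + 1) was fitted in limma 3.58.1 (R 4.3.3) with empirical Bayes and a trend, over features whose mean in the libraries compared was 1 FPKM or more, with Benjamini-Hochberg adjustment over all of them and a threshold of 0.05. Fold changes on this scale understate changes of low genes. The comparison of PT was fitted without a block, that of Zfp423 with the astrocyte batch as a block, and single genes were tested by exact permutation over libraries. The batch numbers of the labels pair the libraries, and the origin of each PT comes from the study. Same-batch libraries deviated together between AstroEGFR* and PT and not in every batch of the Zfp423 comparison. Promoters were read from RefSeq tables (GRCm38.p6). Because that build differs from mm9, no coordinates were combined. Members, lists and tests were chosen with earlier results of these data known. The result of 1 pathway gene is not reported here. All members are named, and in each pathway list the genes past the threshold and the 2 with the largest difference in PT. Stra6, Rbp4, Cyp26a1 and Ncoa3 are named outside this rule. Nothing states that libraries came from separate animals, so p-values cover the spread between these cultures. Alternatives were a pseudocount of 0.1, no filter, median-ratio scaling, removal of 799 small RNA and histone features, no trend, all 10 libraries in 1 fit, the block added or removed, PT1 and PT4 averaged and each library left out. Leaving out both libraries of batch 3, and permuting with PT1 and PT4 averaged, were added after the data were seen. The markers of endothelium summed to 0.426 to 14.4 FPKM and those of neurons to 0.186 to 13.5 FPKM over all libraries.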

Additional observations from a re-analysis of the deposited data

Results flagged for a closer look

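Cyp26b1 in PT4 stood apart from the other PT libraries on the log2(FPKM + 1) scale, at 1.00 FPKM against 0.0233 to 0.103 FPKM. Its gap to the nearest PT library was 0.888 of the range of the group, above the 95% limit of Dixon's test for 4 samples. Chance gives such a gap in about 1 group of 20. The PT group was screened for each of the 9 members, at its lowest and highest library, and this was the only gap flagged. The 1 in 20 is thus not the chance of finding any such gap among them. Groups of 3 libraries were not tested. The levels are near the lower end of the matrix.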

How the results depend on the processing

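Over 229 refits of the 16 single differences reported for the members, none passed the threshold, 214 kept their direction and 15 changed sign. The 214 are not separate checks of direction. Dropping the filter or the trend, or fitting all 10 libraries together, left the estimate unchanged, as did removing the block in the Zfp423 comparison. In its blocked fit, leaving out either library of a batch gave the same estimate. In PT against AstroEGFR*, leaving out 1 library moved Aldh1a3 between -1.30 and 0.049 (positive without AstroEGFR*3), Crabp1 between -0.047 (without PT1) and 2.69, Rara between -0.41 and 0.21 (positive without PT2 and, at 0.019, without AstroEGFR*1) and Rarb between -0.46 (without AstroEGFR*1) and 0.66, and without batch 3 Aldh1a3 was 0.68. In the Zfp423 comparison it moved Crabp2 between -0.44 and 4.84, Rara between -0.23 and 0.19 and Rarb between -2.17 and 0.44, each turned by either library of batch 2, and Rarg between -0.88 and 0.51, turned by either library of batch 3, and with small RNA and histone features removed Rara was -0.0052. Aldh1a1, Aldh1a2, Crabp2 and Rarg stayed lower in PT in every refit that held them, with adjusted p of 0.0706 to 0.332 for Aldh1a1. With a pseudocount of 0.1, the difference of Aldh1a2 was -3.58 and that of Crabp2 -4.45. Crabp2 fell below the filter without AstroEGFR*3, as did Aldh1a2.

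The 152 features past the threshold in PT became 82 with all 10 libraries in 1 fit, 475 with the replicate block, 59 with PT1 and PT4 averaged, 8 without batch 3 and 7 to 123 with 1 library left out, the lowest without AstroEGFR*1. The 0 features of the Zfp423 comparison became 2 without the replicate block and 0 to 60 with 1 library left out, the highest without a library of batch 2. The cause was not tested. No member passed with or without the block. Without batch 3 the difference of Rdh10 was -2.66, against -2.47 with it, and its adjusted p 0.0797. AstroEGFR*3 and PT3 are shallow, so low values there are the least certain.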
